A study of Arabidopsis thaliana with 8 samples.

Results

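NGA2, NGA3, NUB and JAG are 4 Arabidopsis transcription factor genes that shape the leaf lamina and its margin. They were chosen by name, with earlier results of these data known. Each is named by 1 probe set, out of 22746 probe sets on the array that are not Affymetrix controls. All 4 probe sets passed the filter on dim signals, which asked for 2 or more arrays over a log2 value of 4, as did 13888 probe sets altogether. RNA came from apices of 14-day-old seedlings of the Landsberg erecta (Ler) ecotype grown under short days, and 1 biotin-labelled RNA sample was measured per array. The fil-8 yab3-2 yab5-1 plants (the triple mutant) gave 2 arrays, the fil-8 yab3-2 plants (the double mutant) gave 2 arrays and wild-type plants gave 4 arrays. The labels do not say whether the arrays of a group came from separate sets of plants, so the spread between them may be technical. Values are log2 signals computed by the authors with GCRMA, and 1 unit is a doubling of signal.

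YABBY proteins such as FIL, YAB3 and YAB5 are plant transcription factors of young leaves that are known for promoting lamina outgrowth and abaxial identity. NGA2 and NGA3 belong to the NGATHA family, B3-domain factors that act redundantly to restrain growth at the margins of leaves and floral organs and that are needed for the style of the gynoecium. JAG is a C2H2 zinc finger protein that promotes growth of the distal parts of leaves and petals, and NUB is its closest relative, known for acting with JAG in stamens and carpels. The comparison asks whether RNA of these growth regulators differs in apices that carry mutations in 2 or 3 YABBY genes.

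The wild-type arrays did not form 1 group. The array also carries 45 probe sets for spike-in controls of bacterial or phage origin, and their median signal was 7.02 and 7.06 on wild-type arrays 1 and 2, against 2.98 to 4.45 on the other arrays. Plastid-encoded genes had medians of 11.3 and 11.2 on wild-type arrays 1 and 2 over 68 tested probe sets, against 3.07 to 6.18 on the other arrays. The 3′ minus 5′ signal over 6 pairs of control probe sets for Arabidopsis transcripts, a sign of RNA quality, had a mean (log2) of 1.41 on double mutant array 1 and of 1.29 and 1.44 for wild-type arrays 1 and 2, against 0.47 to 0.73 on the other arrays. Across tested probe sets, arrays correlated with a Pearson's r of 0.970 within each wild-type pair and of 0.861 to 0.888 between the pairs. The labels give no reason for the split, so each result below is given against arrays 3 and 4 and against arrays 1 and 2 as well as against all of them. YAB3, one of the mutated genes, lay at 3.35 to 5.50 on the mutant arrays and at 8.35 to 9.48 on the wild-type arrays, while FIL was not analysed here. YAB5 was at 5.28 and 5.02 in the triple mutant, 6.03 and 5.60 in the double mutant, 7.52 and 7.17 on wild-type arrays 1 and 2, and 5.51 and 5.32 on wild-type arrays 3 and 4. In the triple mutant YAB5 differed from all wild-type arrays by -1.23 ± 0.66 (SE; limma adjusted p = 0.358), from arrays 3 and 4 by -0.26 ± 0.24 (adjusted p = 0.529) and from arrays 1 and 2 by -2.20 ± 0.24 (adjusted p = 0.0014). Only the last of these passed. The double mutant, whose label does not name yab5-1, also differed from arrays 1 and 2 for YAB5, by -1.53 ± 0.24 (limma adjusted p = 0.0099). This probe set does not check the yab5-1 label as YAB3 does the yab3-2 label.

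NGA2 showed the widest range of the members. Its signal was 3.97 and 4.37 in the triple mutant, 4.64 and 4.65 in the double mutant, 7.96 and 7.52 on wild-type arrays 1 and 2, and 4.65 and 4.89 on wild-type arrays 3 and 4. Both triple mutant arrays lay below all wild-type arrays, as they did for 17.5% of tested probe sets. All 4 mutant arrays lay below wild-type arrays 1 and 2, as for 22.5% of tested probe sets. The double mutant arrays met the range of arrays 3 and 4 and one of them held the same value as wild-type array 3 to every deposited decimal. Such a tie between arrays occurred in 12.3% of tested probe sets and in 2 of the members, NGA2 and JAG. Wild-type arrays 1 and 2 exceeded arrays 3 and 4 by 2.97 log2 units, a 7.85-fold difference in signal within 1 genotype. Only 1.90% of tested probe sets had a shift between the wild-type pairs at least as large.

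Against all wild-type arrays the NGA2 difference was -2.08 ± 0.98 (SE) log2 units in the triple mutant (limma adjusted p = 0.293; 95% interval -4.37 to 0.20) and -1.61 ± 0.98 in the double mutant (adjusted p = 0.785; interval -3.90 to 0.68). Neither passed. This fit counts the shift between the wild-type pairs as spread, and only 2.92% of tested probe sets had a standard error as large as that of NGA2. With the pairs fitted as separate groups, NGA2 in the triple mutant differed from wild-type arrays 3 and 4 by -0.60 ± 0.24 log2 units, which did not pass (adjusted p = 0.162; interval -1.16 to -0.036), and the double mutant differed from those arrays by -0.12 ± 0.24 (adjusted p = 0.862). Against wild-type arrays 1 and 2 the NGA2 difference passed, at -3.57 ± 0.24 in the triple mutant (adjusted p = 0.00022) and -3.10 ± 0.24 in the double mutant (adjusted p = 0.00082). NGA2 differences were negative against either pair, but the double mutant's interval against arrays 3 and 4 ran from -0.69 to 0.44. On all arrays but wild-type arrays 1 and 2, NGA2 lay at 3.97 to 4.89, close to the filter value of 4. The size and the call of the NGA2 difference rested on wild-type arrays 1 and 2. Those arrays also stood apart in spike-in and plastid signal and had a high 3′ minus 5′ signal. The part of these traits in the NGA2 result was not tested. In whole apices, fewer cells that express a gene and less of its RNA per cell cannot be told apart.

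**Figure D1:**
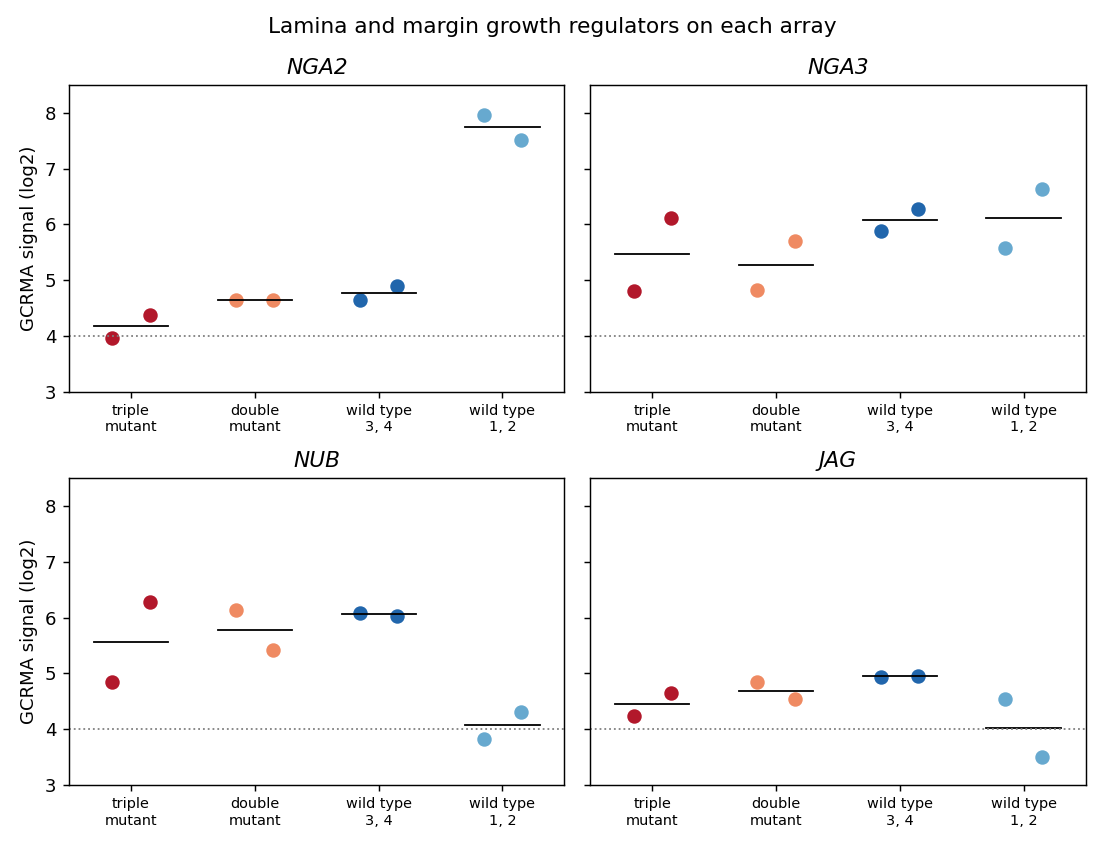
GCRMA signal (log2, vertical axis) of the 4 genes on each of the 8 arrays, with triple mutant (fil-8 yab3-2 yab5-1), double mutant (fil-8 yab3-2), wild-type arrays 3 and 4 and wild-type arrays 1 and 2 from left to right. Points are arrays, black bars are means of 2 arrays and the dotted line is a log2 value of 4; NGA2 was at 7.96 and 7.52 on wild-type arrays 1 and 2 and at 4.89 or below on the other 6 arrays, while NUB was lowest on wild-type arrays 1 and 2.

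NGA3, the other NGATHA member tested, had nearly the same mean in both wild-type pairs but varied within every genotype. Its signal was 4.81 and 6.12 in the triple mutant, 4.82 and 5.70 in the double mutant, and 5.58, 6.63, 5.87 and 6.27 on wild-type arrays 1 to 4. One array of each mutant lay below all wild-type arrays and the other lay within the wild-type range. Both double mutant arrays lay below wild-type arrays 3 and 4, as for 21.7% of tested probe sets. Triple mutant arrays averaged 5.46 ± 0.93 (SD, n = 2), double mutant arrays 5.26 ± 0.62 (n = 2) and wild-type arrays 6.09 ± 0.46 (n = 4). The wild-type pairs differed by 0.04 log2 units, less than in 95.5% of tested probe sets.

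The NGA3 difference was -0.62 ± 0.47 log2 units in the triple mutant (limma adjusted p = 0.513; 95% interval -1.72 to 0.47) and -0.83 ± 0.47 in the double mutant (adjusted p = 0.782; interval -1.92 to 0.27). It hardly depended on the wild-type arrays used. In the triple mutant it was -0.61 against arrays 3 and 4 and -0.64 against arrays 1 and 2, and in the double mutant -0.81 and -0.84. None of these passed (adjusted p = 0.326 to 0.565). Arrays of 1 genotype were far apart for NGA3. The 2 triple mutant arrays were 1.31 log2 units apart, a gap reached by 1.81% of tested probe sets, and the 2 double mutant arrays were 0.88 apart, a gap reached by 10.7%.

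NUB ran opposite to NGA2 across the wild-type arrays. Its signal was 4.85 and 6.28 in the triple mutant, 6.14 and 5.41 in the double mutant, 3.82 and 4.31 on wild-type arrays 1 and 2, and 6.08 and 6.03 on wild-type arrays 3 and 4. All 4 mutant arrays lay above wild-type arrays 1 and 2, as they did for 24.3% of tested probe sets, and each mutant had 1 array above and 1 array below arrays 3 and 4. The mean of wild-type arrays 1 and 2 minus that of arrays 3 and 4 was -1.99 log2 units, a 3.97-fold difference in signal, and 5.44% of tested probe sets had a shift at least as large.

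The NUB difference against all wild-type arrays was 0.50 ± 0.76 log2 units in the triple mutant (limma adjusted p = 0.760; 95% interval -1.27 to 2.28) and 0.72 ± 0.76 in the double mutant (adjusted p = 0.849; interval -1.06 to 2.50). Its sign depended on the wild-type pair. Against arrays 3 and 4 the triple mutant differed by -0.49 ± 0.48 (adjusted p = 0.573) and the double mutant by -0.28 ± 0.48 (adjusted p = 0.846). Against arrays 1 and 2 the values were 1.5 ± 0.48 in the triple mutant (adjusted p = 0.059) and 1.71 ± 0.48 in the double mutant (adjusted p = 0.056). The 2 triple mutant arrays were 1.44 log2 units apart for NUB, a gap reached by 1.38% of tested probe sets, and without triple mutant array 2 the difference against all wild-type arrays was -0.21. The direction of NUB in the mutants is therefore not settled by these arrays.

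JAG was the steadiest of the members on the arrays outside wild-type pair 1 and 2, but it was dim. It lay at 4.95 or below on every array, close to the filter value of 4. Its signal was 4.24 and 4.65 in the triple mutant, 4.84 and 4.54 in the double mutant, 4.54 and 3.50 on wild-type arrays 1 and 2, and 4.94 and 4.95 on wild-type arrays 3 and 4. All 4 mutant arrays lay within the range of the wild-type arrays as a whole. Both triple mutant arrays lay below wild-type arrays 3 and 4, as they did for 34.5% of tested probe sets, and so did both double mutant arrays, as for 21.7%. The lowest JAG value, 3.50 on wild-type array 2, was 1.04 log2 units below wild-type array 1, a gap reached by 7.17% of tested probe sets in that pair.

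JAG differed from all wild-type arrays by -0.04 ± 0.42 log2 units in the triple mutant (limma adjusted p = 0.971; 95% interval -1.03 to 0.96) and by 0.21 ± 0.42 in the double mutant (adjusted p = 0.916; interval -0.79 to 1.20). Against arrays 3 and 4 the differences were -0.50 ± 0.35 (adjusted p = 0.416) and -0.25 ± 0.35 (adjusted p = 0.800) for triple and double mutant, and against arrays 1 and 2 they were 0.42 ± 0.35 (adjusted p = 0.410) and 0.67 ± 0.35 (adjusted p = 0.233). As for NUB, the sign turned with the wild-type pair. The intervals against arrays 3 and 4 ran from -1.33 to 0.33 in the triple mutant and from -1.08 to 0.58 in the double mutant.

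**Figure D2:**
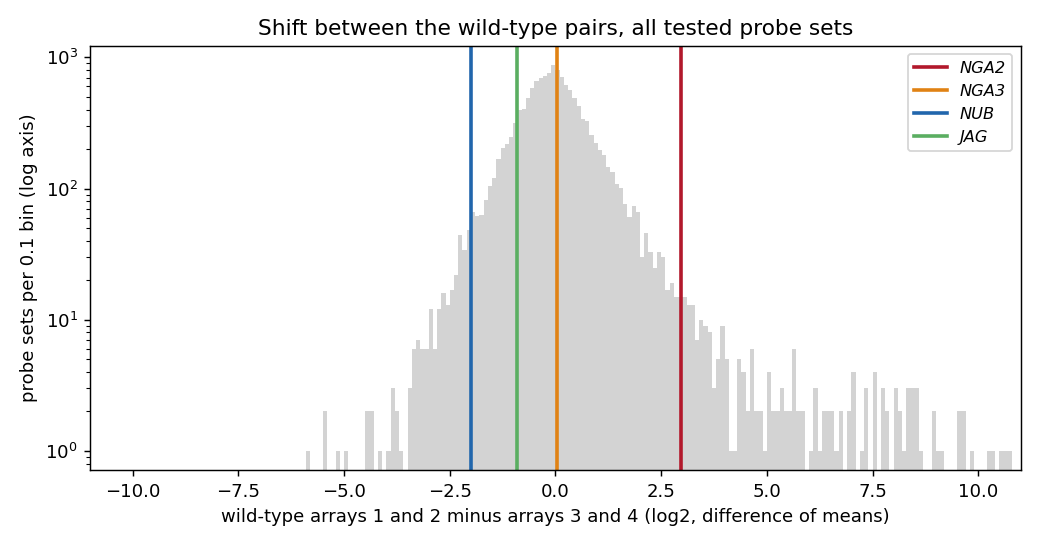
Difference between the mean of wild-type arrays 1 and 2 and the mean of arrays 3 and 4 (log2, horizontal axis) for the 13888 tested probe sets, with the number of probe sets per bin on a logarithmic vertical axis. Vertical lines mark the 4 genes: NGA2 at 2.97, NGA3 at 0.04, JAG at -0.92 and NUB at -1.99.

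Across the members, 0 of 4 passed in the triple mutant against all wild-type arrays, where 3.87% of tested probe sets passed, and 0 of 4 in the double mutant, where 0.166% passed (limma; no member had an unadjusted p under 0.05, against 2776 and 964 of the 13888 tested). Differences were below 0 for 3 of 4 genes in the triple mutant and 2 of 4 in the double mutant, with medians of -0.33 and -0.31, against -0.03 and 0.01 over all tested probe sets. Against wild-type arrays 3 and 4 the differences of all 4 genes were below 0 in both mutants, with medians of -0.55 and -0.27, against -0.04 and 0.00 over all tested probe sets. None passed there, where 10.5% of tested probe sets passed in the triple mutant and 0.583% in the double mutant. NGA2 in the triple mutant was the one difference there with an unadjusted p under 0.05 (limma). Of the 13888 tested probe sets, 3782 had such a p in the triple mutant and 1871 in the double mutant, so NGA2 is not singled out by it. Against wild-type arrays 1 and 2, NGA2 alone passed in each mutant, where 27.2% passed in the triple and 15.8% in the double mutant. Both mutants are set against the same wild-type arrays, so their values are not independent.

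**Figure D3:**
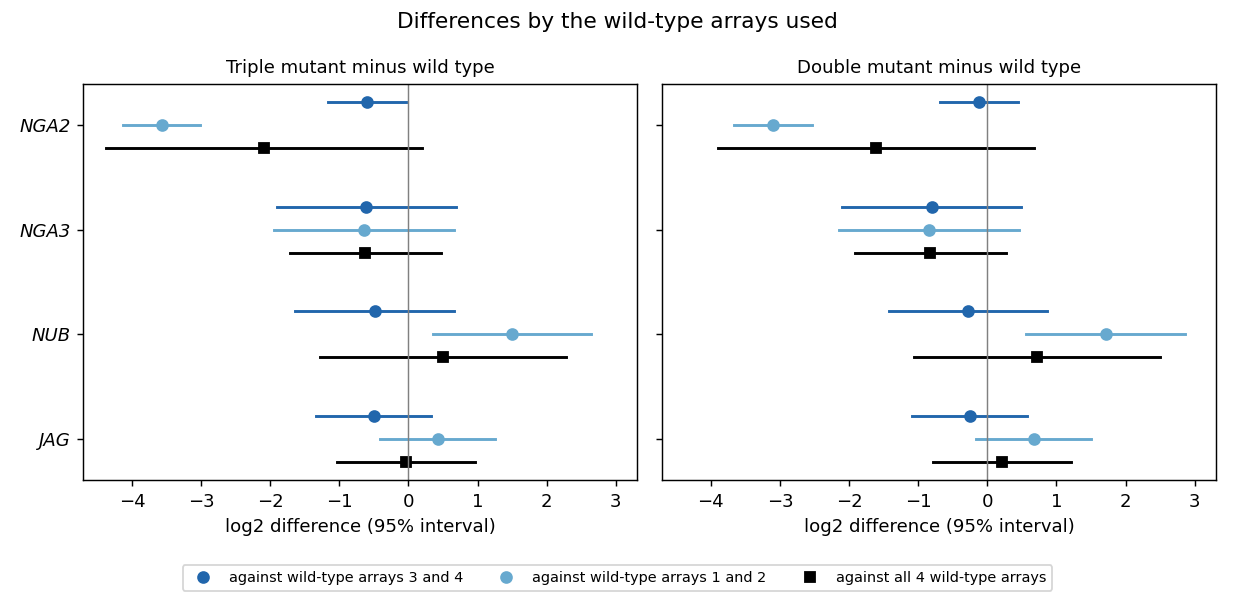
Log2 difference of the triple mutant (left) and the double mutant (right) from wild type for each gene, with 95% intervals from limma as lines. Dark blue circles are against wild-type arrays 3 and 4, light blue circles against arrays 1 and 2 (pairs fitted as separate groups) and black squares against all 4 wild-type arrays; NUB and JAG change sign between the wild-type pairs, NGA3 lies between -0.61 and -0.84 throughout and NGA2 is at -3.57 and -3.10 against arrays 1 and 2.

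The triple and double mutants differ in the yab5-1 allele, and in their comparison the wild-type arrays enter only through the estimated spread. None of the 4 genes passed, where 0.677% of tested probe sets did. NGA2 was 4.17 ± 0.29 (SD, n = 2) in the triple mutant and 4.64 ± 0.01 (n = 2) in the double mutant. Both triple mutant arrays lay below both double mutant arrays for NGA2, as they did for 27.4% of tested probe sets, and the difference was -0.47 ± 1.13 (SE) log2 units (limma adjusted p = 1.0). With the wild-type pairs fitted as separate groups its standard error was 0.24 (adjusted p = 0.415). The differences of NGA3, NUB and JAG were 0.20 ± 0.54, -0.21 ± 0.88 and -0.25 ± 0.49, each with an adjusted p of 1.0, and the arrays of the mutants overlapped for these genes.

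By mean signal, NGA2 ran from triple mutant through double mutant and wild-type arrays 3 and 4 to wild-type arrays 1 and 2, and the neighbours in this order that met were the double mutant and wild-type arrays 3 and 4. NUB ran from wild-type arrays 1 and 2 through triple mutant and double mutant to wild-type arrays 3 and 4, and JAG ran in that same order. For NUB the triple mutant, double mutant and wild-type arrays 3 and 4 overlapped. For JAG, wild-type arrays 1 and 2 overlapped the triple mutant, the triple mutant overlapped the double mutant, and both double mutant arrays lay below wild-type arrays 3 and 4. NGA3 ran from double mutant through triple mutant and wild-type arrays 3 and 4 to wild-type arrays 1 and 2, and each of these overlapped the next.

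Among relatives of these genes, NGA1 and NGA4, the remaining NGATHA genes, stayed below a log2 value of 4 on every array and were not tested. NGA1 was at 2.91 and 2.91 in the triple mutant, 2.59 and 3.02 in the double mutant, 3.93 and 3.86 on wild-type arrays 1 and 2, and 3.08 and 3.15 on wild-type arrays 3 and 4. NGA1 was highest on wild-type arrays 1 and 2, by 0.78 log2 units over arrays 3 and 4, at levels below the filter. All 4 mutant arrays lay below wild-type arrays 1 and 2 for 22.5% of tested probe sets, and the median absolute shift between the pairs was 0.50, so this is not read as a family pattern. NGA4 had the same value, 2.87, on all wild-type arrays and 2.59 to 3.14 on the mutant arrays. RBE, a zinc finger gene of petal development, lay at the lowest value of the table on all arrays.

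**Figure D4:**
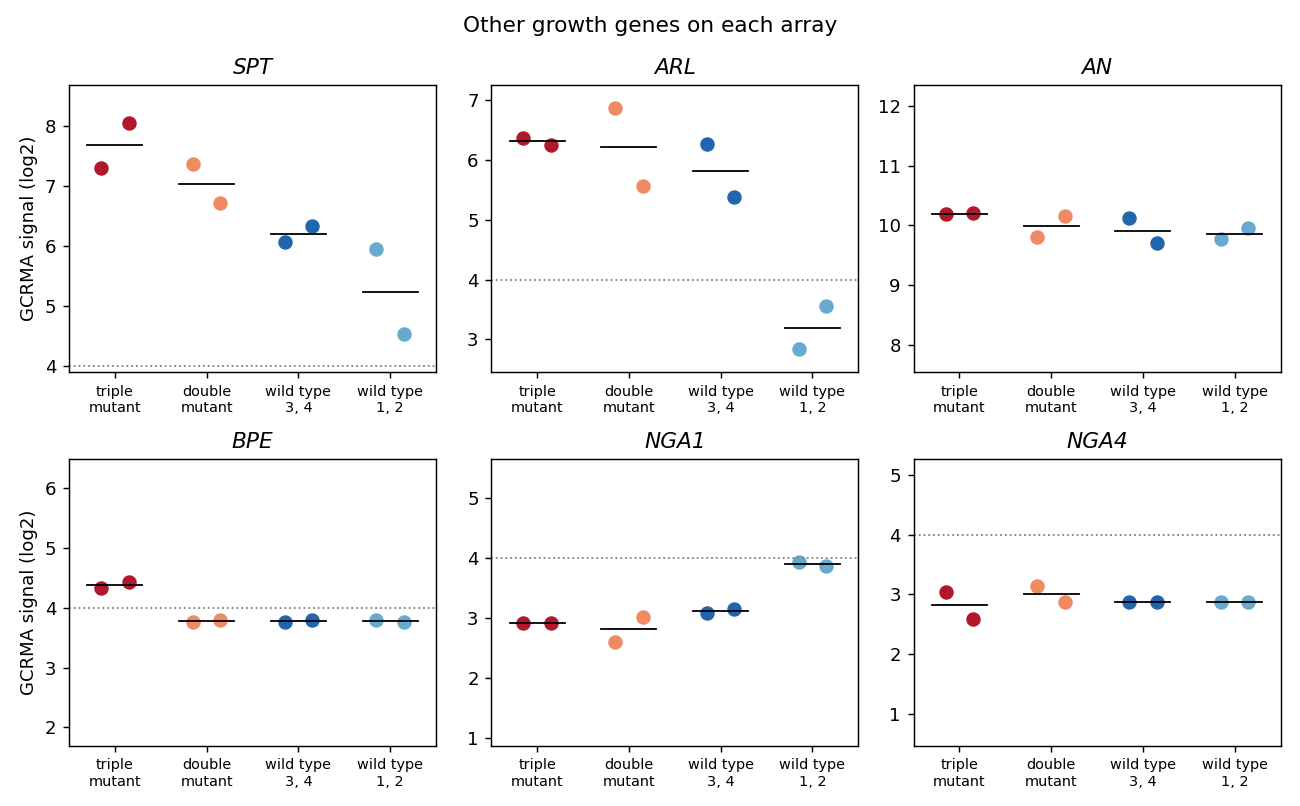
GCRMA signal (log2, vertical axis; each panel spans the same number of log2 units) of SPT, ARL, AN, BPE, NGA1 and NGA4 on each array, in the group order triple mutant, double mutant, wild-type arrays 3 and 4, wild-type arrays 1 and 2. Points are arrays, black bars are means of 2 arrays and the dotted line is a log2 value of 4; SPT was higher on all 4 mutant arrays (6.71 to 8.06) than on all wild-type arrays (4.53 to 6.34).

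Of 68 further genes listed for leaf growth, covering CIN-type TCP factors, GRF and GIF factors, margin and boundary genes, organ size genes and relatives of the members, 9 had a named probe set and 4 were tested, all from the organ size list. None of these 4 passed against all wild-type arrays or between the mutants. Their median difference was 1.20 log2 units in the triple mutant and 0.71 in the double mutant, against -0.03 and 0.01 over all tested probe sets. These medians are not read as a rise of organ size genes. Among the genes behind them, BPE met the filter only through the triple mutant arrays, and ARL was lower on wild-type arrays 1 and 2 than on all other arrays. SPT, a bHLH factor of carpel margins that also limits leaf expansion, was at 7.31 and 8.06 in the triple mutant, 7.38 and 6.71 in the double mutant, and 5.95, 4.53, 6.07 and 6.34 on wild-type arrays 1 to 4. All 4 mutant arrays lay above all wild-type arrays for SPT, as they did for 5.47% of tested probe sets. Its difference was 1.96 ± 0.53 log2 units in the triple mutant (limma adjusted p = 0.094) and 1.32 ± 0.53 in the double mutant (adjusted p = 0.704). It was 1.48 ± 0.50 (adjusted p = 0.114) and 0.84 ± 0.50 (adjusted p = 0.509) against wild-type arrays 3 and 4, and 2.44 ± 0.50 (adjusted p = 0.014) and 1.81 ± 0.50 (adjusted p = 0.054) against arrays 1 and 2, so a call in the triple mutant came only from arrays 1 and 2.

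AN, which controls the polar expansion of leaf cells, was bright and steady, at 10.19 and 10.20 in the triple mutant, 9.80 and 10.16 in the double mutant and 9.70 to 10.12 in wild type (adjusted p = 0.466 and 0.922 for triple and double mutant). ARL and BPE are named after their values were seen. ARL, an ARGOS relative that promotes cell expansion, was at 6.37 and 6.26 in the triple mutant, 6.87 and 5.57 in the double mutant, 2.84 and 3.55 on wild-type arrays 1 and 2, and 6.26 and 5.38 on wild-type arrays 3 and 4. Like NUB, ARL was lower on wild-type arrays 1 and 2 than on all other arrays. All 4 mutant arrays lay above wild-type arrays 1 and 2 for 24.3% of tested probe sets. Its differences against all wild-type arrays were 1.80 ± 0.94 in the triple mutant (adjusted p = 0.349) and 1.71 ± 0.94 in the double mutant (adjusted p = 0.776). With arrays 3 and 4 alone they were 0.49 ± 0.49 (adjusted p = 0.583) and 0.39 ± 0.49 (adjusted p = 0.770). Against arrays 1 and 2 ARL passed, at 3.11 ± 0.49 in the triple mutant (adjusted p = 0.0057) and 3.02 ± 0.49 in the double mutant (adjusted p = 0.012). BPE, a bHLH factor that limits petal size, was at 4.34 and 4.43 in the triple mutant, 3.76 and 3.79 in the double mutant and 3.76 to 3.79 in wild type, so the triple mutant exceeded the others by at least 1.30-fold, with those taken at a log2 value of 4 (adjusted p = 0.091 against all wild-type arrays and 0.364 against the double mutant). By wild-type pair, the triple mutant's BPE difference was 0.61 ± 0.16 for arrays 3 and 4 (adjusted p = 0.061) and 0.60 ± 0.16 for arrays 1 and 2, and the second passed (adjusted p = 0.035). BPE met the filter only through the 2 triple mutant arrays. The spread behind its tests comes largely from dim, nearly constant values of 3.76 to 3.79, so these tests are not taken as support for a difference.

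Of 25 listed markers of shoot meristem, epidermis, green leaf blade, root and flower, only CLV3, expressed in shoot stem cells, had a named probe set. It was at 2.19 on both triple mutant arrays, 4.32 and 3.89 in the double mutant and 2.59 or below in wild type, and was not tested because 1 array was above 4. The makeup of the apices was therefore not checked further, and its part in the results was not tested.

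For each gene, the named nuclear genes with the most similar pattern were taken by Pearson's r over the 8 arrays, out of 7440 probe sets, as a description only, since all genes share the arrays and their pair structure. For NGA2 these were TROL, a thylakoid rhodanese-like protein (r = 0.993, and 0.882 over the 6 arrays without wild-type arrays 1 and 2), AT1G79220 (0.990 and 0.779) and AT1G27100 (0.988 and 0.912). AT1G79220 met the filter only through wild-type arrays 1 and 2, at 4.71 and 4.42, and lay at 3.41 to 3.61 on the other arrays. In all, 308 named probe sets reached an r of 0.9 with NGA2, against 56 with NUB, 46 with JAG and 1 with NGA3. TROL was at 11.28 and 11.29 in the triple mutant, 11.35 and 11.33 in the double mutant, 12.17 and 11.96 on wild-type arrays 1 and 2, and 11.37 and 11.43 on wild-type arrays 3 and 4. For NUB the closest were AT5G38890 (0.956 and 0.808), AT3G22850 (0.954 and 0.937) and AT4G35987, which encodes a calmodulin methyltransferase (0.952 and 0.824). For JAG they were AT2G18900 (0.973 and 0.889), AT1G19140 (0.973 and 0.897) and NRPA2, a subunit of RNA polymerase I (0.972 and 0.944). For NGA3 they were AT3G09010 (0.926 and 0.945), AT3G47550 (0.894 and 0.842) and AT1G18950 (0.884 and 0.839). The 4 genes themselves were left out of these rankings.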

How the data were processed

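The deposited table holds 1 log2 value per probe set and array. The submitters' processing notes name GCRMA and R 2.7.2 as the authors' tools. GCRMA models background from probe sequence, normalizes by quantiles and summarises each probe set; which settings were used is not stated in the labels or the table. That the scale is log2 follows from the range of the values. Of 22810 rows, 64 controls were set aside, and 13888 probe sets above 4 on at least 2 arrays were tested. Names came from the platform annotation, matched through gene identifiers to the TAIR10.1 table, which gave no coordinates here. A single gene is named for 7512 tested probe sets, several for 278 and none here for 6098.

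The comparisons used limma (version 3.58.1, under R version 4.3.3) with lmFit and eBayes (two-sided, 3 groups, 5 residual degrees of freedom; Benjamini-Hochberg over all tested probe sets, threshold 0.05). A second fit took the wild-type pairs as separate groups (4 degrees of freedom). Intervals are 95% intervals from the moderated fit. The genes and lists were chosen with earlier results of these data known. All members were named, with up to 4 listed genes that passed or the 2 brightest of each list, and the 3 most similar genes of each member. Alternatives were other filters, normalizations, variance models, choices of samples, a replicate block and leaving out each array. The number of arrays limits the precision. Figures were drawn with matplotlib 3.10.9.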

Additional observations from a re-analysis of the deposited data

How the results depend on the processing

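The 4 genes' 12 differences were recomputed under every alternative, 201 values in all. Of these, 182 kept direction and side of the threshold, 4 passed where they had not and 15 changed sign, none of the 15 called. Many could not change direction. A difference of means stays the same under another filter or variance model, or without an array outside the comparison. The fit of pairs as groups also enters under both pairs for the comparison between the mutants. The count of 182 therefore does not measure robustness. NGA2 passed against wild-type arrays 1 and 2 (-3.57 in the triple and -3.10 in the double mutant). NUB turned to -0.49 and -0.28 against arrays 3 and 4. JAG turned to 0.42 in the triple mutant against arrays 1 and 2 and to -0.25 in the double mutant against arrays 3 and 4. With the replicate block, in which wild-type arrays 3 and 4 carry no weight in the contrasts, NGA2 gave -3.57 (adjusted p = 0.0047) and -3.10 (adjusted p = 0.012) and JAG 0.42 in the triple mutant; the block called 2500 probe sets for the triple and 950 for the double mutant against wild type. Same-numbered arrays did not deviate together from their group means (r from -0.096 to 0.0039 across tested probe sets), which gave no sign that the numbers pair the arrays. This check is weak, because the 2 arrays of a mutant mirror each other and the wild-type deviations hold the split between the pairs.

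Leaving out 1 array moved the triple mutant's differences over -2.62 to -1.51 for NGA2, -1.28 to 0.03 for NGA3, -0.21 to 1.22 for NUB and -0.36 to 0.17 for JAG. For the double mutant the ranges were -2.15 to -1.04, -1.26 to -0.39, 0.30 to 1.08 and -0.12 to 0.36. Between the mutants they were -0.68 to -0.27, -0.45 to 0.86, -0.93 to 0.51 and -0.45 to -0.04. None passed. NGA3 turned in the triple mutant without triple mutant array 1 (0.030), NUB without triple mutant array 2 (-0.21), and JAG without wild-type array 3 (0.11), wild-type array 4 (0.12) or triple mutant array 1 (0.17). JAG turned in the double mutant without wild-type array 2 (-0.12). Between the mutants NGA3 turned without double mutant array 1 (-0.24) or triple mutant array 2 (-0.45), and NUB without double mutant array 1 (0.15) or triple mutant array 1 (0.51).

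Counts of called probe sets for the triple mutant, 538, were 1455 and 3773 against wild-type arrays 3 and 4 and arrays 1 and 2, 305 with only the groups compared, and 122 to 571 without 1 array (122 and 129 without triple mutant array 1 or 2, 303 and 348 without wild-type array 1 or 4, 305 without either double mutant array). For the double mutant, 23 were called, against 81 and 2200 by wild-type pair, 12 with no filter, 14 with only the groups compared and 3 to 26 without 1 array (3 and 15 without double mutant array 1 or 2, 14 and 11 without wild-type array 1 or 4, 14 without either triple mutant array). Between the mutants 94 were called, against 233 with the pairs as groups, 144 with no filter, 55 with a filter at 6, 53 with only the groups compared and 61 to 92 without 1 array (61 without double mutant array 1, 62 without triple mutant array 1). JAG was too dim to be tested with the filter at 6. With 1 array of a mutant left out, the lone array is assumed to vary like the other groups.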
